A study of Mus musculus with 4 samples.

Results

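Neural progenitor cells (NPC) of the adult mouse dentate gyrus were taken as the authors define them: every nucleus that their deposited expression table assigns to the cluster NPC. They numbered 211 of 14367 nuclei, of which 112 came from the library of week 1 (w1), 75 from w2, 22 from w4 and 2 from w8. The question was which genes set them apart from the 12 other clusters, and above all from their neighbours on the way from stem cell to neuron, the radial glia-like stem cells (RGL, 1387 nuclei) and the early neuroblasts (NB1, 2578 nuclei). The mice carried the CAG-floxStop-Sun1/sfGFP reporter allele, and tamoxifen (TAM), given at an age of 6 to 8 weeks, switched on this nuclear membrane label in the cells the driver line targets and in all their descendants. All 4 groups share this genotype, the C57BL/6J background that the study states and the treatment. They differ by design in the time between TAM and dissection (1, 2, 4 or 8 weeks). Each library is 1 pool of left dentate gyri from 4 mice of both sexes, sorted for GFP, so no test between weeks could be made and the label follows a cell's origin rather than its type. Libraries were processed in pairs of time points per day, so that time after TAM and processing day cannot be told apart between pairs.

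Adult neurogenesis in the dentate gyrus starts from RGL, which divide rarely. Their activated daughters, the intermediate progenitors, divide quickly for a few rounds and leave the cycle as neuroblasts that become glutamatergic granule cells. Intermediate progenitors are known for the T-box factor Eomes (Tbr2), for proneural factors such as Neurog2, and for the full machinery of S phase and mitosis, much of which is switched on in late G1 by E2F factors and in G2 by the B-Myb and FoxM1 system.

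By week, NPC made up 3.91% of the nuclei of w1 (112 of 2867, exact 95% interval 3.23 to 4.68%), 1.77% of w2 (75 of 4243, 1.39 to 2.21%), 0.574% of w4 (22 of 3831, 0.360 to 0.868%) and 0.0584% of w8 (2 of 3426, 0.00707 to 0.211%). None of the 4 intervals overlapped a neighbour's, but with 1 pool a week they cover counting error only. The depth of NPC, a median of 4278 UMIs (unique molecular identifiers, 1 per captured RNA molecule) per nucleus and a range of 1401 to 9237, was close to that of RGL (4091) and NB1 (4057.5) and below that of the mature granule cell cluster GCmat1 (8138) and of all nuclei (5671). By library the medians of NPC were 4491, 4235, 3284.5 and 6740.5, and the NPC sums held 499011, 324601, 76298 and 13481 UMIs. Levels are given as CPM, the UMIs of a gene per 1000000 UMIs of the same nuclei. Of all barcode sequences, 27 occurred in more than 1 library, and none belonged to an NPC nucleus that matched a nucleus of another library.

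Not every NPC nucleus carried the markers. The authors' pseudo-time, a position along the RGL to granule cell path computed from the expression of the same nuclei, put 205 NPC nuclei between 7.53 and 9.18 and 6 between 2.28 and 3.16, with none in between. These 6 were 3 nuclei of w1, 1 of w4 and both nuclei of w8. One of them, in w1, held 34 UMIs of Flt1 (a vascular receptor), 21 of Adgrl4 and 42 of Slco1a4 and no UMI of the 6 markers. Another in w1 held 64 UMIs of Enpp2, 24 of Htr2c and 109 of Trpm3, genes known from choroid plexus, and again no marker UMI. Both nuclei of w8 held Pomc (61 and 64 UMIs), Pax7 (11 and 3) and Trpm3 (79 and 51) and no Eomes, Top2a or Neil3, which goes against the label NPC in that library. The remaining pair held cycle genes, with 58 S-phase and 30 G2/M UMIs in w1 and 8 and 2 in w4. All values are given with the 6 nuclei unless stated, and the comparisons were repeated without them. The w8 nuclei were too few for a sum of their own and did not enter the fit.

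Markers of other cell types had fewer UMIs in the NPC sums than stem cell and neuroblast markers, and the vascular and choroid ones lay mostly in those nuclei. Of 51 UMIs of the 7 vascular and mural markers 39 were in the 6 nuclei, and Tbx18 and Slc6a13 of that list were at 0 in NPC. Of 86 UMIs of the 4 ependymal and choroid markers, 46 were in 1 of the 6 nuclei, and 3 of the 4 genes, Foxj1 among them, were at 0. Oligodendrocyte precursor markers reached 9 UMIs in all, microglia markers 30, oligodendrocyte markers 77, astrocyte markers 108 and GABAergic interneuron markers 140, of which 0, 4, 1, 2 and 1 were in the 6 nuclei, against 1147 for the stem cell markers and 926 for the neuroblast markers. Their part in the results was not tested. The interneuron markers summed to 153 CPM in NPC, more than in any other cluster, with the immature granule cell cluster GCimm1 next at 101.

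The 6 genes given as markers of NPC were followed in each library. chr9:118478212-118486132 on mm10 holds Eomes (ENSMUSG00000032446), the T-box factor of intermediate progenitors, which reached 267, 200.2 and 78.6 CPM in NPC of w1, w2 and w4, against 22.4, 5.65 and 1.19 in all other nuclei of the same libraries. Every NPC value lay above every value outside, while the w4 value was the lowest of the 3 NPC values and rested on 6 UMIs. RGL held 0.82 CPM and NB1, the next highest cluster, 35.4. Against the mean of the 12 other clusters the fitted log2 difference was 8.15 ± 0.42, against RGL 7.53 ± 0.46 and against NB1 2.34 ± 0.27. Here and below ± is an approximate SE, the size of the difference over the square root of its F statistic. The alternative fit with DESeq2 gave SEs against all clusters of 0.92 for Eomes, 1.92 for Top2a and 2.04 for Neil3. For Myt1 its SE was smaller (0.26 against 0.29). With DESeq2 the Eomes call against NB1 was lost, at 2.12 with an SE of 1.16.

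Top2a (ENSMUSG00000020914, chr11:98992943-99024189), the topoisomerase that untangles sister chromatids, reached 405, 471 and 734 CPM in NPC and 14.4, 2.82 and 1.47 in RGL of the same libraries. NB1 was at 0.826 CPM, and the highest cluster after NPC was the oligodendrocyte precursors (OPC) with 16.3. Here too no library overlapped. The log2 differences were 9.58 ± 0.35 against all other clusters, 5.86 ± 0.34 against RGL and 8.84 ± 0.44 against NB1. Neil3 (ENSMUSG00000039396, chr8:53586867-53639065), a DNA glycosylase of dividing cells, had the largest increase among all genes that met the naming rule: 269, 237 and 406 CPM in NPC, 8.7, 1.41 and 0 in RGL and 0.184 in NB1, a log2 difference of 9.88 ± 0.42. Neither gene is in the authors' expression table.

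Cdk6 (ENSMUSG00000040274, chr5:3341485-3531008), a G1 kinase, and Elavl2 (ENSMUSG00000008489, chr4:91250763-91400785), a neuronal RNA-binding protein, were in most NPC nuclei. Cdk6 reached 1401, 795 and 813 CPM in NPC and 236 and 136 in RGL and NB1, and Elavl2 1275, 899.6 and 721 CPM in NPC, 74.9 in RGL and 523 in NB1. Myt1 (ENSMUSG00000010505, chr2:181763332-181827797), a zinc finger factor of neuronal differentiation, was not highest in NPC: it reached 381, 299 and 209.7 CPM there, 397 in OPC and 199 in NB1, and the difference from NB1, 0.51 ± 0.18, did not pass the thresholds. It passed with RLE size factors (0.61) and with DESeq2 (0.59), and in no other setting tried. The other 5 were highest in NPC. These genes were given as markers of NPC, and the authors drew the clusters from the expression of these same nuclei. Their levels in w1, w2 and w4 are therefore a description and do not test the label. The 2 nuclei of w8 had 0 UMIs of Eomes, Top2a and Neil3, 1 each of Cdk6 and Myt1 and 2 of Elavl2.

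At the depth of single nuclei the markers were often missed. At least 1 UMI was found for Cdk6 in 91% of NPC nuclei, for Elavl2 in 84.4%, for Myt1 in 65.4%, for Eomes in 40.8%, for Top2a in 39.3% and for Neil3 in 33.2%. In GCmat1, mature neurons that should lack the cycle genes, whose median depth was 8138 UMIs against 4278, the shares were 14.8%, 7.6%, 27.3%, 0%, 0.0596% and 0.149%. Each NPC share was above the share in that deeper cluster.

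**Figure D1:**
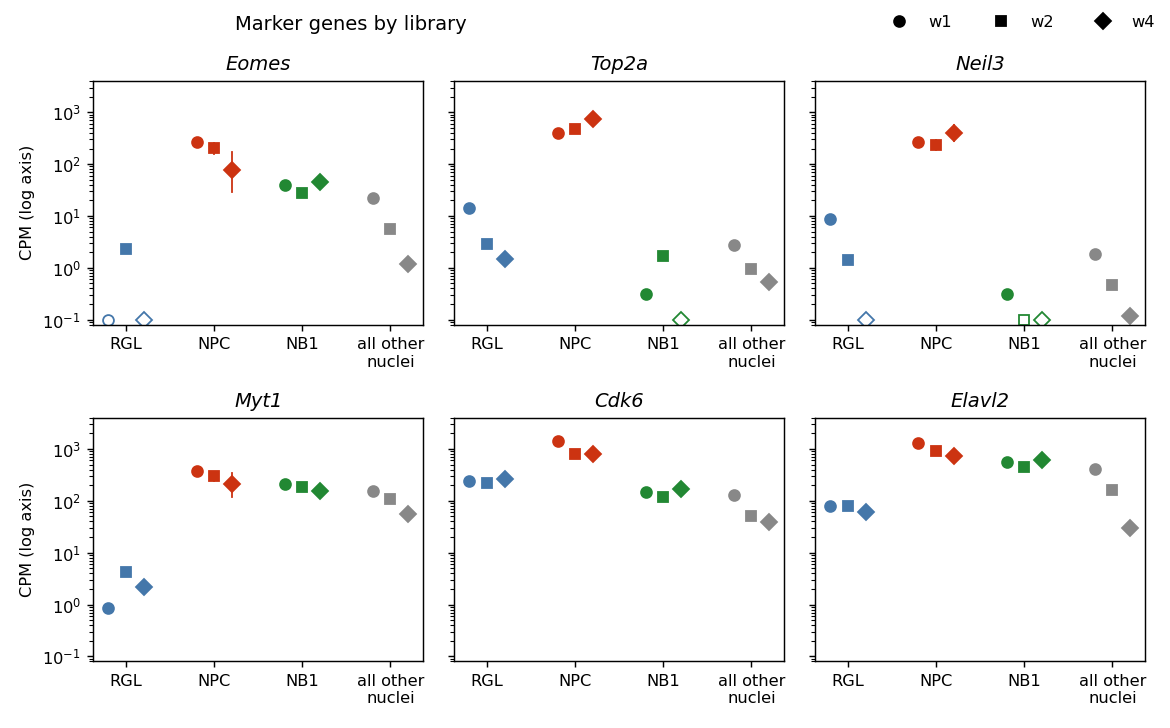
Level of the 6 marker genes in CPM (log axis) in RGL, NPC, NB1 and all other nuclei, with a circle for w1, a square for w2 and a diamond for w4, 95% Poisson intervals for NPC and open symbols at 0.1 for 0 UMIs. The NPC points of Top2a run from 405 to 734 CPM, far above the RGL points, while Myt1 in NPC and NB1 lies close together.

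Across the genome, UMIs were summed per library and cluster and 1 edgeR model was fitted to the 38 sums with at least 10 nuclei, with cluster and library as terms. Calls needed a change of 1.5-fold or more and an adjusted p (Benjamini-Hochberg) no greater than 0.05. Because the authors drew the clusters from the expression of these same nuclei, the calls describe NPC and no p is quoted for them. The mean over clusters weighs each cluster alike, so a fitted difference can depart from the ratio of pooled levels. Of 11548 genes tested, 3334 (28.9%) were called against the mean of the other clusters, 2340 higher (20.3%) and 994 lower (8.61%). Against RGL 3654 were called (31.6%), 1709 higher (14.8%) and 1945 lower (16.8%), and against NB1 3630 (31.4%), 1847 higher (16%) and 1783 lower (15.4%).

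Without w2 the lower calls against all clusters numbered 584, and with nuclei thinned to 2000 UMIs 490. The split between higher and lower depended on the reference. With the trajectory clusters alone as reference 2422 genes were higher and 2291 lower, and with all other nuclei of a library as 1 sum 1146 were higher and 2063 lower. The comparisons with RGL and NB1 do not use that mean, but their counts also moved: without w1 1157 were higher and 1540 lower than RGL and 1230 and 1304 than NB1, and thinned 1158 and 1257 than RGL and 1245 and 1238 than NB1. Of all tested genes, 2667 (23.1%) had their highest level of the 13 clusters in NPC, 755 were called higher than both neighbours and 445 lower than both. Genes in between were 418 that were lower than RGL and higher than NB1 and 246 with the opposite order. The fitted differences have a small offset, with a median over all tested genes of 0.13 against all clusters, -0.04 against RGL and -0.05 against NB1.

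**Figure D2:**
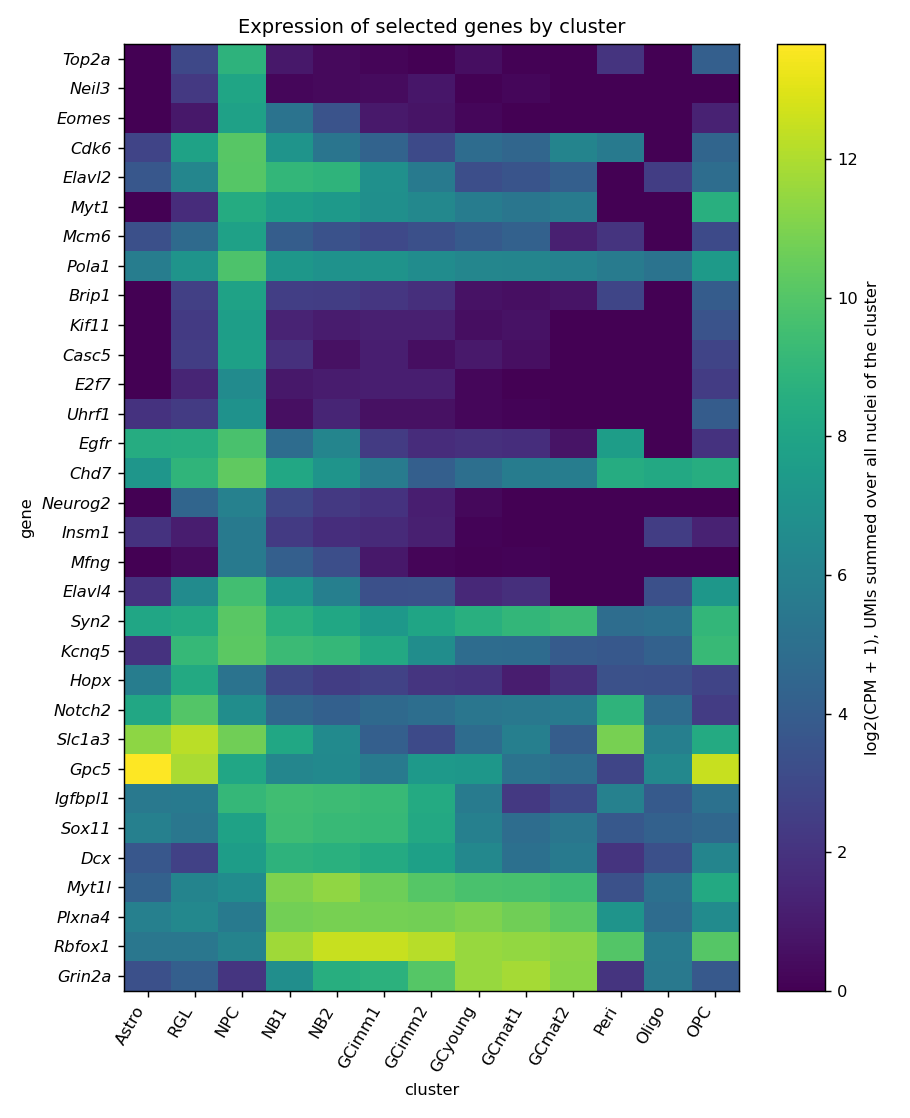
Heat map of log2(CPM + 1) for 32 genes (rows) in the 13 clusters (columns, all nuclei of a cluster pooled), to be read along rows, since levels of different genes are not scaled for length. Brighter colours are higher levels. The replication and mitosis rows are brightest in NPC, Hopx, Notch2, Slc1a3 and Gpc5 are brighter in RGL than in NPC and brighter in NPC than in NB1, and Myt1l, Rbfox1 and Grin2a are brightest in neuroblast and granule cell clusters.

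Replication origins are licensed in G1 by the loading of the MCM2-7 helicase through the ORC, Cdc6 and Cdt1 proteins, and fired in S phase by Cdc7 with Dbf4, Cdc45 and the GINS complex. Of 21 genes of this list 19 were tested and 18 called higher in NPC than in all other clusters, none lower, with a median log2 difference of 4.17. Against RGL 17 were higher and against NB1 17, with medians of 2.66 and 3.28, and 19 of the 21 had their highest level in NPC. Rare members can pass the filter through NPC alone and then had to differ. Such counts, here and in the polymerase, cyclin, spindle, chromatin and repair lists below, are therefore a description of the cluster. Over all tested genes 20.3% were higher than all clusters, 14.8% higher than RGL and 16% higher than NB1, and 23.1% were highest in NPC. Mcm6, a subunit of the helicase, reached 216, 231 and 262 CPM in NPC and 30.0, 15.5 and 36.1 in RGL, with no overlap. Mcm10, which helps to open the helicase, reached 60.1, 55.5 and 65.5 CPM and 3.04, 4.23 and 0 in RGL, and had the largest difference of the list from all clusters, 7.65 ± 0.63. Ticrr (Treslin), a firing factor, was at 74.1, 77 and 157 CPM against 5.57 in RGL and 4.4 in NB1. Orc6 was not called in any of the 3 comparisons, though it was against RGL once the 6 nuclei of low pseudo-time were left out (83.2 CPM in NPC, 46.4 in RGL and 54.3 in NB1), and Orc1 was not called against RGL. Cdt1 had no UMI in any nucleus of the series, and nothing can be said of it.

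The DNA polymerases and the enzymes of nucleotide supply were higher in NPC in nearly every test: 20 of 20 against all clusters and against RGL and 19 against NB1, with all 22 of the list highest in NPC. Pola1, the catalytic subunit of the polymerase that primes new strands, reached 999.98, 792 and 996 CPM in NPC, 159, 96.8 and 134 in RGL and 154, 141 and 155 in NB1, a difference of 2.50 ± 0.16 from RGL and 2.38 ± 0.17 from NB1. The primase subunits Prim1 and Prim2 were at 152, 179 and 209.7 and at 323, 243 and 315 CPM, 8.56 and 5.48 times their RGL levels. The groups did not overlap for any of the 3 genes. Of the nucleotide enzymes, Rrm2, the S-phase subunit of ribonucleotide reductase, had the largest difference, 6.53 ± 0.58 on 41 UMIs, and Tyms (thymidylate synthase) differed from RGL by 2.67 ± 0.27. Rfc3, a clamp loader subunit, was the tested member not called against NB1 (52.6 against 28.7 CPM).

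Of 27 cyclins, cyclin-dependent kinases and E2F or MYB factors, 23 were tested, and 21 were called higher than all clusters, 20 higher than RGL and 19 higher than NB1, with medians of 4.10, 2.16 and 2.91. The D-type cyclins, which partner Cdk4 and Cdk6 in G1, went separate ways. Ccnd2 reached 834, 739 and 550.5 CPM in NPC, 167, 205 and 188 in RGL and 46.2, 45.5 and 56 in NB1, so that NPC lay above both neighbours in each library. Ccnd1 was at 16, 33.9 and 13.1 CPM and did not differ past the thresholds from RGL or NB1. Ccnd3 was lower in NPC than in RGL, with a difference of -1.51 ± 0.29, and was the sole member called lower in any comparison. E2f1 reached 154, 163 and 118 CPM against 5.74 in RGL and 31.5 in NB1, and the repressive E2f7 124, 64.7 and 65.5 CPM against 1.64 and 0.826. The activator E2f3 was at 307, 262 and 275 CPM and E2f5 was not called in any comparison. Foxm1, which drives G2/M genes, had 25 UMIs in NPC and 0.328 CPM in RGL. Cdk1, the mitotic kinase, had 20 UMIs in NPC and none in NB1, and the cyclins Ccna2, Ccnb1 and Ccnb2, with 11, 5 and 11 UMIs, did not pass the filter.

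Of the 14 lists of pathways and processes, the mitotic genes had the largest medians. Of 42 genes of the spindle, kinetochore and cytokinesis 37 were tested, and all 37 were higher in NPC than in all clusters, than in RGL and than in NB1, with medians of 5.81, 4.36 and 4.53. As in the licensing list, rare members that pass the filter through NPC alone had to differ. Both the count and the medians are therefore a description. The summed level of the 42 genes was 4138, 4026 and 6278 CPM in NPC of w1, w2 and w4, and 299.8 in RGL and 259.2 in NB1. Of the list, 41 genes were highest in NPC and the remaining member was Anln, which oligodendrocytes held at 81.9 CPM against 79.9 in NPC. Kif11, the motor that pushes spindle poles apart, reached 182, 206 and 341 CPM in NPC and 6.52, 4.23 and 0 in RGL. Casc5 (Knl1) and Ndc80, both of the outer kinetochore, reached 186, 253 and 341 and 74.1, 98.6 and 183 CPM against 4.59 and 0.82 in RGL. For these motor and kinetochore genes the w4 value was the highest of the 3 libraries and rested on 22 nuclei. Kif4 and Kif23, motors of the central spindle, were at 172, 117 and 249 and 90.2, 108 and 144 CPM, and Mki67, which coats mitotic chromosomes, at 120.2, 120.1 and 144 CPM against 2.3 in RGL and 0.826 in NB1. Cenpp, the member with the most UMIs, had the smallest difference from all clusters, 2.29 ± 0.16. Plk1, Cdc20 and Ube2c had 5, 7 and 6 UMIs and were not tested.

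The promoter windows of 4 of these genes, picked as examples that hold matches, are shown because the S-phase and G2/M groups are known for different promoter letters: E2F sites in the former, and the CHR element with CCAAT boxes, bound by MuvB complexes and NF-Y, in the latter. Each line is the 250 bases before the RefSeq start site on the gene's own strand of GRCm38.p6, 5′ to 3′, at chr1:128359706-128359955 (Mcm6, minus strand), chrX:93632156-93632405 (Pola1, minus strand), chr11:99024190-99024439 (Top2a, minus strand) and chr19:37376132-37376381 (Kif11, plus strand). Capitals mark matches on either strand to TTTCCCGC, TTTGGCGC, TTTCGCGC or TTTGCCGC (E2F), TTTGAA or TTCGAA (CHR) and CCAAT.
Mcm6: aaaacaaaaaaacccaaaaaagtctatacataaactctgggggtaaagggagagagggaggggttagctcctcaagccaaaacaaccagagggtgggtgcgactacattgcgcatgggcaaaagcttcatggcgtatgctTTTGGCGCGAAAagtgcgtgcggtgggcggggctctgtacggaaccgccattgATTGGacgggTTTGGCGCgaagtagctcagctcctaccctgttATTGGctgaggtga
Pola1: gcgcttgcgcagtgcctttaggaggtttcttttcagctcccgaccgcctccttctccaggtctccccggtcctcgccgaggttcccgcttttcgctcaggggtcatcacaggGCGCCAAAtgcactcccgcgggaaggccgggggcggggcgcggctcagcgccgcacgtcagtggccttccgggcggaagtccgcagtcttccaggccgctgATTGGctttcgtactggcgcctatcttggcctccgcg
Top2a: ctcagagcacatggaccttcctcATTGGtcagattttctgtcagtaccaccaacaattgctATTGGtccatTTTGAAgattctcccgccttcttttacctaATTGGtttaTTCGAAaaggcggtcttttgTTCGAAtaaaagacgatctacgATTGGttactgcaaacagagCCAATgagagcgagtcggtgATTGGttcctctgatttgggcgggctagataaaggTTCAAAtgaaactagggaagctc
Kif11: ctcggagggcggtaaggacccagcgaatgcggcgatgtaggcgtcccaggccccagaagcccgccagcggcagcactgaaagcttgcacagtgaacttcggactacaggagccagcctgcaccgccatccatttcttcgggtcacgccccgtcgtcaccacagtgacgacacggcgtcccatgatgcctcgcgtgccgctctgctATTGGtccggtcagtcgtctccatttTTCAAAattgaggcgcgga
The Mcm6 window held 3 E2F matches, of which TTTGGCGC and GCGCGAAA overlap, and 2 CCAAT boxes, and the Pola1 window 1 of each. Neither held a CHR match. The Top2a window held 4 CHR matches and 6 CCAAT boxes and the Kif11 window 1 of each, and neither held an E2F match. Over the lists, an E2F match was found in 6 of 17 windows of licensing genes (35.3%, for 15 of the 21 genes) and 1 of 38 of spindle genes (2.63%, for 34 of 42 genes), against 3.19% of the 11145 windows of tested genes and 1.86% of all 32851 windows. A CHR match was in 5 of 17 licensing (29.4%) and 13 of 38 spindle windows (34.2%), against 11.7% of windows of tested genes and 17.1% of all. CCAAT was in 12 of 17 and 28 of 38 (73.7%), against 34.6% and 33.8%. The E2F share was 9.09% of 22 windows for polymerase and nucleotide genes, 22.7% for cyclins and E2F factors, 18.9% for chromatin genes and 7.41% for repair genes, and the CHR share in the same order was 9.09%, 31.8%, 29.7% and 14.8%. The windows of Mcm10 and Neil3 held no E2F match and that of Mcm10 no CHR match either. These are letters in a fixed window and not binding sites, and no binding was measured.

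Of 31 tested genes of chromosome structure and chromatin, 29 were higher than all clusters, 26 higher than RGL and 23 higher than NB1, with medians of 2.86, 2.35 and 1.59. Ezh2, the methyltransferase of Polycomb complex 2, reached 599, 613 and 721 CPM in NPC, 109, 94.9 and 81.7 in RGL and 252, 270.1 and 251 in NB1, while its partners Suz12 and Eed were not called against RGL (0.44 ± 0.16 and 0.63 ± 0.29). The condensin core subunits Smc2 and Smc4 were at 385, 277 and 642 and 216, 228 and 315 CPM, 6.78 and 4.93 times RGL, and the cohesin core subunits Smc1a and Smc3 only 2.22 and 1.99 times RGL. Of the DNA methylation genes, the maintenance enzyme Dnmt1 and its guide Uhrf1 were higher than all clusters (2.41 ± 0.24 and 7.47 ± 0.46), and Dnmt3a, a de novo methyltransferase, was lower (-0.69 ± 0.21, and -0.93 ± 0.23 against RGL), at 122, 98.6 and 105 CPM. The Dnmt3a call against all clusters was lost without w2, with thinned nuclei, with trajectory clusters only and with 1 sum of other nuclei, while against RGL the list held 1 lower call under each setting tried. Esco2, which acetylates cohesin in S phase, had 85 UMIs in NPC and 0.184 CPM in NB1. Lmna, the lamin of mature nuclei, was not called in any comparison.

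Of 30 genes of DNA repair and fork protection, all 30 were highest in NPC, and 29 of 29 tested were higher than all clusters and than NB1 and 27 higher than RGL. As in the licensing list, rare members that pass the filter through NPC alone had to differ, and the list was chosen with earlier results known. The counts are therefore a description. Over all tested genes 23.1% were highest in NPC, and 20.3%, 16% and 14.8% were higher than all clusters, NB1 and RGL. Rad51b, a factor of homologous recombination, reached 495, 339 and 668 CPM against 32.3 in RGL and 13.7 in NB1. Brip1, Brca1 and Bard1, which work in 1 complex at damaged forks, were at 283, 148 and 301, at 192, 166 and 183 and at 120.2, 108 and 170.4 CPM, and their RGL levels were 5.08, 7.21 and 7.21. Every NPC library was above RGL for these genes. The checkpoint adaptor Clspn differed from RGL by 4.94 ± 0.36 and from NB1 by 6.94 ± 0.41. The exceptions against RGL were Atr, the kinase of the fork checkpoint (0.34 ± 0.16), and Fancl (0.49 ± 0.25).

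To describe how cell-cycle transcripts were spread over nuclei, UMIs of 41 S-phase and 51 G2/M genes were counted in each nucleus. Every nucleus was first thinned to 2000 UMIs, which left out 5 NPC nuclei below that depth. At least 2 UMIs of the S-phase list were found in 188 of 206 NPC nuclei (91.3%), of the G2/M list in 183 (88.8%) and of both in 170 (82.5%, exact 95% interval 76.6 to 87.4%). By library the share with both was 81.3% in w1, 82.7% in w2 and 95.5% of the 22 nuclei in w4, with overlapping intervals, and 0 of 2 in w8. The share with both was 19.6% in RGL, 25.4% in NB1, 13% in OPC and 3.31% in GCmat1. The medians were 10 S-phase and 5 G2/M UMIs in NPC and 1 and 2 in RGL, and single NPC nuclei reached up to 35 and 61. Without thinning the shares were 93.8% in NPC, 55.2% in RGL, 66.4% in NB1 and 58.6% in GCmat1, so the deepest of these clusters moved most. Nuclei of NB1 and GCmat1, which the study describes as postmitotic, also passed the cut-off. The shares therefore do not measure how many nuclei were in cycle.

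**Figure D3:**
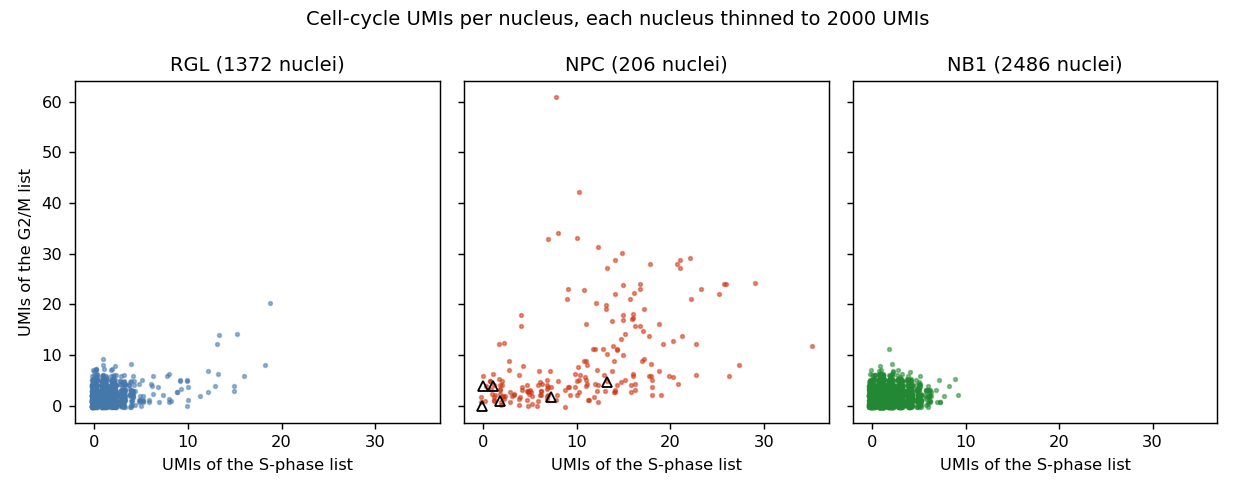
UMIs of the S-phase list (horizontal axis) and of the G2/M list (vertical axis) in each nucleus thinned to 2000 UMIs, in panels for RGL (1372 nuclei), NPC (206) and NB1 (2486), with open black triangles for NPC nuclei of low pseudo-time. NPC nuclei spread along both axes, up to 35 and 61 UMIs, while most RGL and NB1 nuclei lie near the origin, with medians of 1 S-phase and 2 G2/M UMIs.

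Of 15 genes that hold the cycle back 12 were tested, 8 were higher than all clusters, 3 higher and 1 lower than RGL and 6 higher than NB1, with medians of 1.19, 0.34 and 0.53. Against RGL, 4 of 12 called is near the 31.6% of all tested genes. Over all tested genes 20.3% were higher than all clusters and 16% higher than NB1. The 3 that were higher than RGL were Rbl1 (p107, a pocket protein that rises with S phase; 144, 188 and 249 CPM against 14.4), Cdkn2c (32.8 against 3.61 CPM) and the antiproliferative Btg2 (120.4 against 35.4, of which 11 of 110 UMIs were in the 2 nuclei of w8). The other pocket proteins, Rb1 and Rbl2, were not called against RGL (0.17 ± 0.17 and -0.25 ± 0.21), nor was the kinase inhibitor Cdkn1b (0.06 ± 0.28). Gas1, a growth arrest gene that also binds Sonic hedgehog, was lower than in RGL (-1.08 ± 0.38) and higher than in NB1 (2.80 ± 0.53). The lower call of Gas1 was lost without w1, without w2, without the library term, with DESeq2 and with thinned nuclei. Cdkn1a and Cdkn1c had 2 and 1 UMIs in NPC.

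Stem cell and glial genes placed NPC between its neighbours. Of 40 genes 38 were tested, and 36 were lower in NPC than in RGL and none higher, with a median of -2.02, while 23 were higher than in NB1 and 1 lower (Slc4a4), with a median of 1.84. Against the mean of all clusters 21 were higher and none lower, but over the settings tried these counts ranged from 10 to 25 and 0 to 6. Over all tested genes 16.8% were lower than RGL, 16% higher than NB1 and 20.3% higher than all clusters. The summed level was 10695, 10105 and 11429 CPM in w1, w2 and w4 of NPC, and 28801 in RGL and 2797 in NB1. The differences were graded. Id4, Gpc5, Hopx and Notch2 were far below RGL: Id4, an inhibitor of bHLH factors, was at 22, 3.08 and 13.1 CPM in NPC and 241, 199.7 and 157 in RGL (-4.25 ± 0.35), and Hopx, a marker of quiescent RGL, at 26.1, 52.4 and 13.1 and 295, 329 and 316 (-3.52 ± 0.30). Slc1a3 (GLAST), a glutamate transporter, was at 1747, 1611 and 1638 CPM in NPC, 5293, 4435 and 4476.8 in RGL and 315, 227 and 264 in NB1, so that no library of 1 cluster overlapped another cluster. Sox6, Sox5 and Ptprz1, a receptor phosphatase, were closer to RGL, with differences of -0.59 ± 0.21, -0.64 ± 0.17 and -0.96 ± 0.23. Notch1 was not called against RGL (166, 114 and 209.7 CPM against 137, 156 and 171), and Notch2 differed from RGL by -3.57 ± 0.22. Sox2, which lies inside Sox2ot on the same strand, had no UMI in any nucleus, and how reads shared by overlapping genes were counted was not checked.

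**Figure D4:**
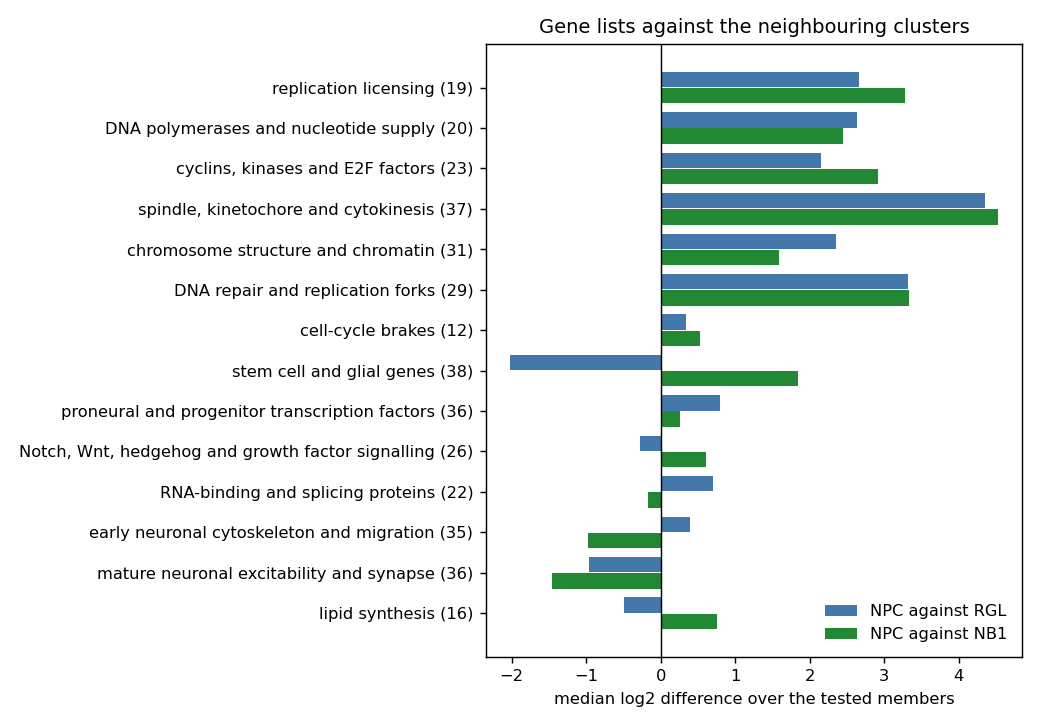
Median log2 difference of NPC from RGL and from NB1 for each of 14 gene lists, with the number of genes tested in brackets and a line at 0. The lists of replication, mitosis and repair lie above 0 against both neighbours, the stem cell list is -2.02 against RGL and 1.84 against NB1, and the early neuronal list is 0.39 against RGL and -0.98 against NB1.

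Among 43 proneural and progenitor transcription factors 36 were tested, with 17 higher and 4 lower than RGL, 14 higher and 9 lower than NB1, and 25 higher and 3 lower than all clusters. With 1 sum of other nuclei per library the last pair was 16 and 9, with trajectory clusters only 23 and 5, and without w2 25 and 1. Without w1, 2 were lower than RGL. Over all tested genes 14.8% were higher and 16.8% lower than RGL, and 16% higher and 15.4% lower than NB1. Against all clusters those shares were 20.3% and 8.61%. The lower calls of the list against RGL and against all clusters did not exceed these shares. Neurog2, the proneural factor of glutamatergic progenitors, reached 60.1, 67.8 and 65.5 CPM against 21.7, 27.2 and 7.36 in RGL (1.26 ± 0.32) and 6.51 in NB1. Insm1 and Hes6, which act at the switch to neurogenic division, were higher than RGL by 4.93 ± 0.57 and 1.76 ± 0.33. The chromatin remodeller Chd7 was at 1397, 1211 and 1022 CPM, above RGL (485) and NB1 (287), and Mycn at 54.1, 64.7 and 91.7 CPM against 15.7 and 31. Neurod4, with 21 UMIs in NPC, 30 in the larger NB1 and none in RGL, did not pass the filter. Neurod1, which lies inside Cerkl on the same strand, had no UMI in any nucleus.

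The SoxC factors, which start neuronal gene expression, were above RGL. Sox4 was at 250.5, 296 and 367 CPM, above RGL by 2.49 ± 0.21 and not called against NB1 (273 and 274 CPM, -0.29 ± 0.19). Sox11 was at 248, 231 and 170.4 CPM, above RGL by 2.15 ± 0.21 and below NB1 (-1.77 ± 0.19). Granule neuron factors were lower than in NB1: Prox1 (-1.71 ± 0.19), Neurod2 (-4.10 ± 0.50, 5 UMIs in NPC), Bcl11b (-2.52 ± 0.39) and Tbr1 (-2.43 ± 0.52, 7 UMIs), and so was Myt1l (-4.80 ± 0.29), a repressor of non-neuronal genes. Its relative Myt1 did not share that pattern. The regional factors Emx1, Emx2 and Pax6 were not called against RGL (0.12 ± 0.28, -0.29 ± 0.26 and 0.03 ± 0.23). Zbtb20, Nfia and Nfix, which the whole lineage expresses, were not called against NB1.

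Signalling genes were called in both directions. The Notch ligand Dll1 was higher than RGL (44.1, 52.4 and 39.3 CPM against 16.7) and NB1 (7.16), the other ligand Jag1 was lower than RGL (-1.09 ± 0.39), and of the Fringe enzymes that modify the receptor, Mfng was higher than RGL by 6.54 ± 0.69 on 45 UMIs, none of them in w4, and Lfng lower (-2.80 ± 0.45). The epidermal growth factor receptor Egfr, a marker of activated progenitors, reached 741, 939.6 and 1520.3 CPM in NPC, 414, 378 and 274 in RGL and 26.9, 27.4 and 42.6 in NB1. All 3 NPC values lay above those of both neighbours. Components of Sonic hedgehog signalling were below RGL and above NB1, as Ptch1 (-1.62 ± 0.20 and 1.14 ± 0.22) and Gli3 (-1.77 ± 0.19 and 3.62 ± 0.24), while Smo was not called against either. The Wnt effector Lef1 was also in between (141 CPM in NPC, 285 in RGL and 27.6 in NB1), with 19 of its 129 UMIs in the 6 nuclei of low pseudo-time, and Tcf7l1 was -4.78 ± 0.43 against RGL. In all, 6 of 26 tested genes were higher and 10 lower than RGL, and 11 higher and 3 lower than NB1. Over all tested genes 14.8% were higher and 16.8% lower than RGL, and 16% higher and 15.4% lower than NB1.

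Of 22 genes of RNA-binding and splicing proteins, 11 were higher and 2 lower than RGL, and 7 higher and 8 lower than NB1. Over all tested genes 14.8% were higher and 16.8% lower than RGL, and 16% higher and 15.4% lower than NB1. Elavl4 (HuD) was at 786, 678 and 616 CPM in NPC, 106, 90.2 and 98.7 in RGL and 164, 113 and 109.8 in NB1, and was higher in NPC than in both, as Elavl2 was, whose call against NB1 was lost with DESeq2, with sums of at least 2 or 20 nuclei and without w1, w2 or w8. Elavl3 was higher than RGL and lower than NB1 (2.88 ± 0.19 and -0.89 ± 0.17). Srrm4, a splicing factor of neuronal microexons, was at 659, 758 and 380.1 CPM against 10.2 in RGL and did not differ past the thresholds from NB1 (639). Rbfox3, which encodes the neuronal antigen NeuN, was already at 681, 591 and 367 CPM against 22.2, 17.9 and 21.3 in RGL, and at 887 in NB1. Rbfox1 was not called against RGL, at 32.1, 95.5 and 144 CPM against 18.3, 55 and 58.9, and stood at 3393 in NB1. The stem cell regulators Msi2 and Qk were lower than RGL (-1.21 ± 0.19 and -2.11 ± 0.20), and Msi1 was not called against RGL.

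Of 35 tested genes of the early neuronal cytoskeleton and migration, 24 were lower than NB1 and 2 higher (31.4% of all tested genes called). Against RGL 13 were higher and 9 lower (31.6% of all called). Without w1, 17 were lower than NB1 and 4 lower than RGL, without w2 or w4 6 were lower than RGL, and with DESeq2 16 were lower than NB1. Against all clusters 12 were higher and 8 lower, with a median of 0.29 whose sign depended on the setting (-1.22 to 0.54). With 1 sum of other nuclei per library the counts were 3 higher and 18 lower, and with trajectory clusters only 6 and 14. Over all tested genes 20.3% were higher and 8.61% lower than all clusters in the main fit. Dcx, the microtubule protein of migrating neuroblasts, was at 248, 139 and 105 CPM in NPC, 3.48, 9.4 and 2.94 in RGL and 481, 411 and 484 in NB1. Every NPC library was above RGL and below NB1. Unc5d, a netrin receptor, was above RGL by 6.09 ± 0.47 and not called against NB1. The 2 that were higher than NB1 were the guidance receptor Robo2 (1014, 647 and 1298 CPM in NPC and 188 in NB1, with 792 in RGL) and the guidance protein Draxin (210.4, 185 and 380.1 against 121). Calb2 and Tac2, markers of postmitotic neuroblasts, were at 10.9 and 21.9 CPM in NPC, and Rgs6 had 4 UMIs against 579.5 CPM in NB1.

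Of 36 genes of mature excitability and synapses all were tested, and 19 were lower than all clusters, 15 lower than RGL and 20 lower than NB1, with 2, 7 and 3 higher. Over all tested genes 8.61%, 16.8% and 15.4% were lower and 20.3%, 14.8% and 16% higher in these comparisons. The list's lower calls against all clusters ranged from 14 without w2 or w4 to 31 with trajectory clusters only and 32 with 1 sum of other nuclei. The glutamate receptor genes Gria1, Gria2 and Grin2b were below both neighbours (Gria2 at 1052, 909 and 1166 CPM in NPC, 1814 in RGL and 3115 in NB1). The GABA-A receptor subunit gene Gabrb1 was at 5332, 3818 and 3819 CPM in RGL and 244, 259 and 288 in NPC, without overlap. Kcnq5, a potassium channel, and Syn2, a synapsin, went the other way and were highest in NPC of all 13 clusters, at 1285, 1069 and 1468 and 1206, 1134 and 1127 CPM, with 578 and 328 in RGL and 645 and 409 in NB1. Of the 100 NPC UMIs of Syt1, a synaptic vesicle calcium sensor, 62 came from the 2 nuclei of w8, which did not enter the fit.

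Of 16 tested genes of fatty acid and cholesterol synthesis, Acaca, the carboxylase that makes malonyl-CoA, was the member higher than RGL (523, 462 and 524 CPM against 255, 256 and 284), 5 were lower than RGL, and 6 were higher and 1 lower than NB1. Against RGL, 1 higher and 5 lower of 16 is near the 31.6% of all tested genes called. Against NB1 31.4% of all tested genes were called, 16% higher and 15.4% lower. Without w1 the counts were 0 higher and 2 lower than RGL and 3 higher than NB1, without w4 3 were lower than RGL and 3 higher than NB1, and without w2 4 were higher than NB1. The Acaca call was also lost without w8, with trajectory clusters only, with sums of at least 2 nuclei and with no filter on low counts. Thrsp (Spot14), which limits malonyl-CoA use in stem cells, was at 190.4, 302 and 419 CPM, below RGL (-1.19 ± 0.18) and above NB1 (3.56 ± 0.22). Elovl6, a fatty acid elongase, was lower in all 3 comparisons (-0.80 ± 0.23 and -1.50 ± 0.22 against the neighbours).

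The 15 largest increases over all clusters, among genes called, on the same side in w1, w2 and w4 and with at least 50 UMIs, were highest in NPC and higher than both neighbours in 15 of 15 cases. These 15 were picked for that increase, so the count follows largely from the choice and is no support. Among them were the spindle and kinetochore genes Kif11, Kif4, Casc5 and Ndc80, the licensing gene Mcm10, the repair gene Bard1, Esco2, Top2a, Neil3, Iqgap3 and Eomes. The others were not protein-coding genes. Gm29260, a long intergenic RNA (chr1:41781808-41939560), was at 719, 505 and 852 CPM in NPC, 48.7, 24 and 13.3 in RGL and 21.1, 23.5 and 8.96 in NB1 (9.04 ± 0.30 against all clusters). 1190002F15Rik, also intergenic (chr6:134929092-134956798), was at 212, 253 and 315 CPM against 5.41 and 9.63 in RGL and NB1. D030055H07Rik is annotated as antisense (chr9:106148687-106160201; 96.2, 86.3 and 105 CPM), and Gm5607 (chr8:12385771-12436768) contains Sox1, which itself had no UMI. Gm5607 was at 475, 320.4 and 721 CPM, against 145 in RGL and 4.5 in NB1, and whether its counts hold reads of Sox1 was not checked.

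Of the 15 largest decreases, 10 had no UMI in NPC and 5 had 1 to 5. Parm1 had 0 NPC UMIs against 73.4 CPM in all other nuclei, at least 22.3-fold lower when the NPC sum is set to 3 counts, and Ece1, an endothelin-converting enzyme, was at least 5.34-fold lower. Slit3, an axon guidance ligand, had 5 UMIs in NPC and 1520.4 CPM outside, 119 to 855 times more by counting error alone, and was at 10.3 CPM in RGL, where it was not called. Ryr3, a calcium release channel, and Atp2b3, a calcium pump, had 1 UMI each in NPC, with counting intervals of the ratio from 65.6 to 14443 and from 20.3 to 4474. Of the 15, 4 were called lower than both neighbours. Parm1, for example, was at 0.984 CPM in RGL and was not called against it, and was highest in the immature granule cell cluster GCimm2 (155).

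The authors' table holds part of the features. Of 845 genes outside it that were tested, 279 were called against all clusters (33%), 182 higher (21.5%) and 97 lower (11.5%). Thinned, 87 were higher and 78 lower, with no filter on low counts 476 and 96, and with trajectory clusters only 313 and 141. Of the 845, 466 were detected in under 1% of all nuclei and 202 in over 80%, and rare genes that passed the filter through NPC alone had to differ, so the count is no independent support. Beside genes given above, the largest increases held Uhrf1 (108, 142 and 144 CPM against 4.1 in RGL) and Melk, a kinase of dividing progenitors (68.1, 67.8 and 65.5 against 0.82). The largest decreases were in Tenm2 (27 UMIs in NPC, 3891 CPM outside), Nrg3, Ntrk3, Clstn2 and Rbfox1. Of 116 Nrg3 UMIs in NPC, 75 were in the 2 nuclei of w8, and without them its NPC level by library was 24, 55.5 and 144 CPM against 62.3 in RGL and 2867 in NB1.

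Within NPC, the 205 nuclei of high pseudo-time were cut by pseudo-time into 4 bins of 51 or 52 nuclei. Pseudo-time was computed from the expression of these nuclei, so the levels along it are a description. The stem cell genes Hopx and Notch1 were at 65.3, 55.6, 13.5 and 0 CPM and at 244, 181, 113 and 61 CPM from the earliest bin to the latest. Eomes went the other way, at 131, 162, 302 and 338 CPM, as did Elavl2 at 488, 672, 1592 and 1730.3, Igfbpl1 at 179, 361, 780.1 and 966, Dcx at 52.3, 139, 239 and 385 and Rbfox3 at 305, 468, 658 and 1139. In the pooled bins each step of these genes was upward, as it was for Sox4, Sox11 and Elavl4. Not all neurogenic genes rose. Prox1 was at 340, 241, 325 and 319 CPM, Insm1 at 47.9, 83.4, 31.6 and 28.1 and the marker Myt1 at 279, 435, 392 and 272. Within w2, cut into 4 bins of its own, the order was less regular, as Elavl2 was at 1502 CPM in the third bin and 1075 in the last, Igfbpl1 at 392 in the earliest and 299.6 in the next, and Notch1 at 83.1, 161, 161 and 50.6 over the 4 bins. Cycle genes peaked in the middle: the S-phase list summed to 4447, 5854, 6714 and 5472 CPM and the G2/M list to 3645, 5854, 5920 and 3536, with Top2a at 239.5, 602, 667 and 361 and Neil3 at 139, 343, 442 and 159. Ccnd2 was at 910.3, 1116, 676 and 403 CPM and was lowest in the latest bin. Each bin held nuclei of w1, w2 and w4, with 29, 23, 28 and 29 from w1.

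**Figure D5:**
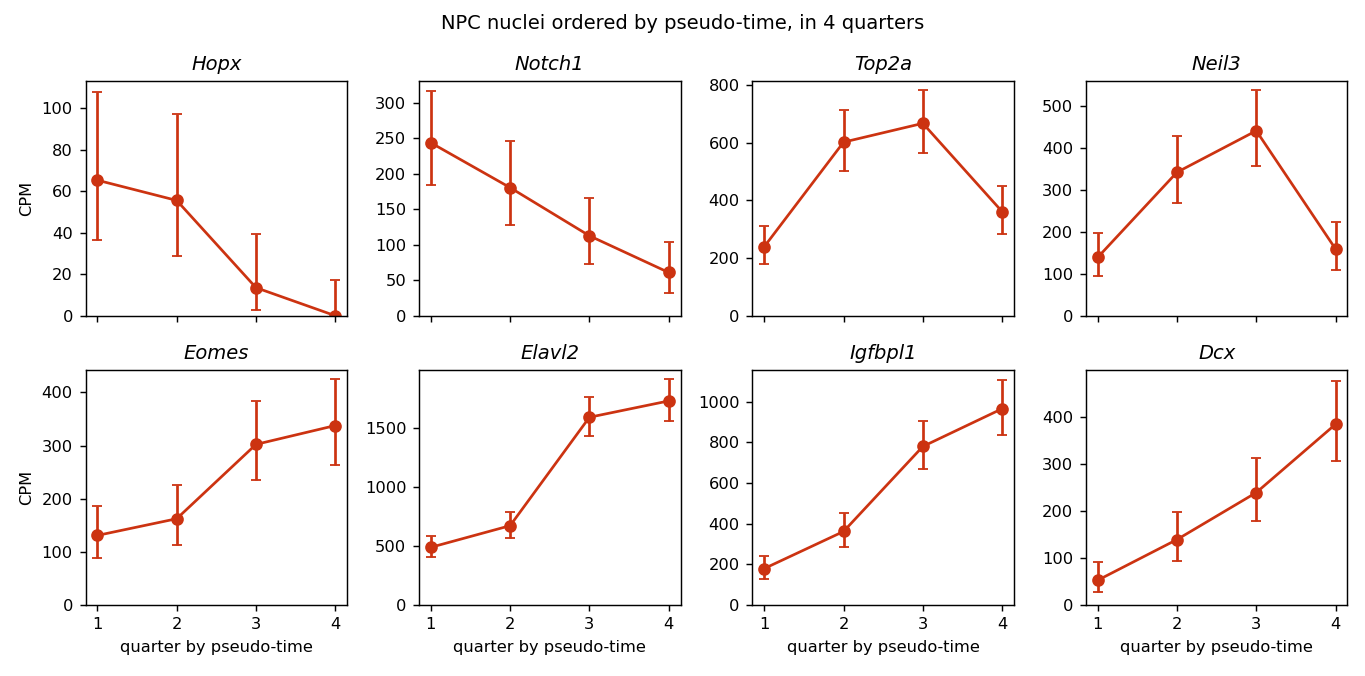
Level in CPM of 8 genes in 4 bins of NPC nuclei by pseudo-time (horizontal axis, earliest to latest), with 95% Poisson intervals, which cover counting error only. Hopx and Notch1 decrease, Eomes, Elavl2, Igfbpl1 and Dcx increase, and Top2a is highest in the middle bins (602 and 667 CPM).

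A small set of NPC nuclei carried factors known from GABAergic lineages. Dlx1 or Dlx2, homeobox factors of interneuron progenitors, had a UMI in 17 of 211 NPC nuclei (13 in w1, 3 in w2, 1 in w4), in 6 of 1387 RGL, 19 of 2578 NB1 and 2 of 3356 GCmat1 nuclei. Those 17 nuclei held 117 of the 141 NPC UMIs of Dlx1as, 38 of 42 of Dlx6os1, 649 of 842 of Nrxn3 and 74 of 195 of Meis2, beside 84137 of all 913391 NPC UMIs. They also held 62 of 411 Top2a and 46 of 242 Neil3 UMIs, and 16 of 17 had at least 2 S-phase and 2 G2/M UMIs without thinning, which 93.8% of all NPC nuclei had. Of the 17, 2 had an Eomes UMI against 84 of the other 194. Their pseudo-time ran from 7.73 to 8.74 (median 8.04), inside the range of the rest. These nuclei were chosen by the Dlx genes after the values were seen, and the shares are a description. Gad1 and Gad2, which make GABA, had 1 of 3 and 6 of 11 NPC UMIs in them.

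Between weeks, the NPC sums of w1 and w2 were compared without a test, by whether 95% Poisson intervals of CPM overlapped. Of 4128 genes with at least 50 NPC UMIs they did not for 302 (7.32%), 126 higher in w2 (3.05%) and 176 lower (4.26%). Without the 6 nuclei the number was 306, with 278 in both. Tox, an HMG-box factor, went from 22.0 CPM in w1 to 111 in w2, and Pcdh11x, a protocadherin, from 30.1 to 136. In NPC of w4 they were at 13.1 CPM (1 UMI) and 91.7 CPM (7 UMIs). Gm16432 went from 16.0 to 317 CPM, but in all other nuclei as well (25.8 and 273). Tox was at 14.5 and 8.06 CPM in all other nuclei of w1 and w2, at 7.83 and 14.1 in RGL and at 4.87 and 11.0 in NB1. Other differences came from few nuclei: 64 of 66 Enpp2 UMIs were in 1 nucleus, and 239 of 248 Trpm3 UMIs in the 6. Without the 6, Dlx1 (93.4 to 30.8 CPM) and Pde7b (216 to 70.9), a phosphodiesterase, were among the 5 largest decreases, and Pde7b was also lower in all other nuclei of w2 (141 and 45.0) and in RGL (475 and 241). The pools differed in sex as well. Of NPC nuclei, 71 of w1 held UMIs of Y-linked genes and none of Xist and 28 the reverse, against 23 and 46 in w2 and 11 and 9 in w4, and the part of sex in the shifts was not tested.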

How the data were processed

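Single-nucleus RNA-seq libraries (10x chemistry, 1 pool of 4 mice per week) were aligned by the authors with STARsolo 2.7.4a to mm10, with UMIs of exons and introns counted. The deposited matrices hold whole UMI counts per gene and nucleus. The deposited expression table holds log2 values that the authors normalized with scran, after removal of doublets (scDblFinder) and of nuclei with few features, and it carries their cluster and pseudo-time lines. Cluster labels and pseudo-time were taken from that table and all levels from the counts: 45706 features, 17046 barcodes and 14367 nuclei. Doublets were not called again.

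UMIs were summed per library and cluster where at least 10 nuclei were present (38 sums). edgeR 4.0.16 under R 4.3.3 was run with TMM factors, filterByExpr, and quasi-likelihood tests with terms for cluster and library (22 residual degrees of freedom), and p-values were adjusted by Benjamini-Hochberg over all 11548 genes tested. DESeq2 1.42.0, other normalizations, filters and thresholds were alternatives. Shares carry exact Clopper-Pearson intervals and sums exact Poisson intervals at 95%, and a count of 0 was set to 3 counts where a bound was needed (3.28 CPM over NPC). Gene positions are from the mm10 annotation (GENCODE) and promoter sequences from RefSeq (GRCm38.p6). Members of the gene lists, and the naming of the 15 largest changes each way, were chosen with earlier results of these data known. Named genes were the markers, the largest changes called on the same side in w1, w2 and w4 with at least 50 UMIs in the higher group, and members of the lists with a role in the text. The Dlx nuclei and the 6 nuclei of low pseudo-time were singled out after the values were seen.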

Additional observations from a re-analysis of the deposited data

Results flagged for a closer look

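The authors' table leaves out part of the barcodes of the count matrices, and some of these carried progenitor genes. A barcode was counted when it held a UMI of Eomes and at least 2 S-phase and 2 G2/M UMIs. Among left-out barcodes this held for 23 of 410 in w1 (5.61%, exact 95% interval 3.59 to 8.30%), 16 of 373 in w2 (4.29%, 2.47 to 6.87%), 4 of 1628 in w4 (0.246%, 0.0670 to 0.628%) and 0 of 268 in w8 (exact upper limit 1.37%, and 1.12% for 3 counts). The shares of w1, w2 and w4 are listed because they lie above the limit that a count of 0 allows there (0.732%, 0.804% and 0.184%), which any count above 3 does. Among the nuclei that the table keeps outside NPC the same shares were 4.65%, 1.66% and 0.394%, and 1.498% over all libraries (212 of 14156), while 82 of 211 NPC nuclei met the rule. The median depth of left-out barcodes was 4321.5, 6710, 8943 and 6928 UMIs by library, against 4278 for NPC. Those that met the rule had medians of 5540, 8028.5 and 5195.5 UMIs in w1, w2 and w4. UMIs were not thinned here, and deeper barcodes meet the rule more easily. Grounds for removal named in the methods of the study were few detected features, doublets, low quality, membership of clusters of w4 nuclei without a counterpart in another data set of the same study, and small components of the neighbour graph, and which of these applied to the barcodes counted here was not determined.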

How the results depend on the processing

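Clusters of 1 library come from the same pool and were paired by the library term, while weeks, with 1 pool each, could not be paired. Without that term, which is the fit without a replicate block, 3343 genes were called against all clusters, 3441 against RGL, 3304 against NB1 and 284 outside the authors' table, against 3334, 3654, 3630 and 279 with it. Thinning all nuclei to 2000 UMIs gave 2188 calls against all clusters, 2415 against RGL and 165 outside the table, and no filter on low counts gave 572 outside it. Leaving out 1 library at a time gave 2528 to 3353 calls against all clusters, 2697 to 3731 against RGL, 2534 to 3722 against NB1 and 271 to 339 outside the table, with the fewest without w1 against all clusters. The share of NPC nuclei with at least 2 S-phase UMIs was 96.2% without thinning, 96.6% at 1 UMI and 83.5% at 3 UMIs, and of G2/M UMIs 97.2%, 96.6% and 76.7%. The median depth of NPC was 3326 UMIs over table features alone. The share of NPC in w8 was 0 without the 6 nuclei of low pseudo-time, a setting chosen after the data were seen. Of 553 differences from all clusters of 40 genes, which are the markers and the largest changes and not the other list members, under the alternatives, 499 kept their call, 54 lost it, 30 of them when 1 library was left out and 6 under thinning, and 0 changed direction. Eomes counted as lost without w4, at a log2 difference of 7.92, but the fit gave no usable SE there. In the same setting Eomes was called higher than RGL (7.37 ± 0.45) and NB1 (2.55 ± 0.27). Over the settings tried, no gene of the licensing, polymerase, spindle or repair lists was called lower than all clusters. These lists were chosen with earlier results known and hold rare members that pass the filter through NPC alone. The absence of lower calls is therefore a description and no support. NPC rest on 211 nuclei, 22 of them in w4, and at this depth intervals of genes with few UMIs are wide.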
